A study of Mus musculus with 20 samples.

Results

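The comparison sets accessible chromatin in wild-type (WT) C2C12 cells at day 1 in control medium (D1 CTL, 2 libraries) against the same cells at day 0 (D0, 2 libraries). C2C12 is an established line of mouse myoblasts that, once induced, can exit the cell cycle and fuse into myotubes. Accessibility was measured by ATAC-seq, in which a transposase cuts and tags open DNA. The series holds 20 libraries in 10 groups: WT cells and cells lacking Setd2 (KO, lines 1 and 2), sampled at D0 and, in control medium or under methionine restriction (MR), at D1 and D5. No label ties the WT replicates to separate cultures, so every spread given here may be technical. The 4 deposited peak lists were merged wherever peaks shared 1 bp, which gave 66923 regions. A region was gained when both D1 CTL lists and neither D0 list had a peak there, and lost in the reverse case. By this rule 5002 regions were gained (7.47%), 1766 were lost (2.64%) and 33672 (50.3%) were called in all 4 libraries.

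Myogenic differentiation is driven by the basic helix-loop-helix factors MyoD, Myf5, myogenin and MRF4, which bind E-boxes (CANNTG) together with MEF2 proteins and open chromatin at muscle genes. Myogenin is switched on as myoblasts commit, and genes of the sarcomere, of calcium handling and of fusion follow. Serum response factor binds CArG boxes in the promoters of muscle and cytoskeletal actins.

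Gained regions, which by the rule had no D0 peak, lay over the start of muscle genes, and 8 of these promoters are shown because the results below turn on them. Tnnt2, Tnni1 and Mylpf had other peaks within 1 kb of a gene end in both D0 libraries, and Pygm in 1. Each line gives the 250 bases before the RefSeq start (GRCm38.p6), 5′ to 3′ along the gene, with E-boxes and CArG boxes in capitals.
Myog (chr1:134289754-134290003, plus strand): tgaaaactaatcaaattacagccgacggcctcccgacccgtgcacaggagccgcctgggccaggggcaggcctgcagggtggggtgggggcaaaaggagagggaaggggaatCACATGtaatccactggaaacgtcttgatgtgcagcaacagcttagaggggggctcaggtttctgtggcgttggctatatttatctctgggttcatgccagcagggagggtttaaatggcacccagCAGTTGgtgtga
Tnnt2 (chr1:135836084-135836333, plus strand): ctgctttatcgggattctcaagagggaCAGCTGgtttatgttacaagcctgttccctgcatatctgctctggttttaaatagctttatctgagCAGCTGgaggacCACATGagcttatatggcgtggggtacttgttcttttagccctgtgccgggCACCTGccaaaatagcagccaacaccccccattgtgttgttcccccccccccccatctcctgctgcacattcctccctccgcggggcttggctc
Tnni1 (chr1:135799171-135799420, plus strand): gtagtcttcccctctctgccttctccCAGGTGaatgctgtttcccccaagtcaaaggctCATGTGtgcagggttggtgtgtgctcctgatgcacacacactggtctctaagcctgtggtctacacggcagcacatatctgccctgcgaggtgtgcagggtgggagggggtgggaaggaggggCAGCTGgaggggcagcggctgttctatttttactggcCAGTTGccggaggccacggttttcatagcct
Mylpf (chr7:127211358-127211607, plus strand): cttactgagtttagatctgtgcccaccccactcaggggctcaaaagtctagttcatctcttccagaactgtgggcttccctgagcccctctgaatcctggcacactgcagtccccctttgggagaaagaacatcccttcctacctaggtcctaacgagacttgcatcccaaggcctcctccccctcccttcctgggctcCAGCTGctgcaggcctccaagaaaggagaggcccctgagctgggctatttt
Pygm (chr19:6384158-6384407, plus strand): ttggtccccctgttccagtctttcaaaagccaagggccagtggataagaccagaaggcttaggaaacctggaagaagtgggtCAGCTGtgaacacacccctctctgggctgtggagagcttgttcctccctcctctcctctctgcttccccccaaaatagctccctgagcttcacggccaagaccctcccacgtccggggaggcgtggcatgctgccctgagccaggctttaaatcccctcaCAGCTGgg
Acta1 (chr8:123894776-123895025, minus strand): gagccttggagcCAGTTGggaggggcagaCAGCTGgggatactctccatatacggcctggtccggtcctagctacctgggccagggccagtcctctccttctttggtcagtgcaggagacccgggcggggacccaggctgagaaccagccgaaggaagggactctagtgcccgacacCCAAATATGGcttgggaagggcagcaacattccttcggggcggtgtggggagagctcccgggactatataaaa
Actc1 (chr2:114052876-114053125, minus strand): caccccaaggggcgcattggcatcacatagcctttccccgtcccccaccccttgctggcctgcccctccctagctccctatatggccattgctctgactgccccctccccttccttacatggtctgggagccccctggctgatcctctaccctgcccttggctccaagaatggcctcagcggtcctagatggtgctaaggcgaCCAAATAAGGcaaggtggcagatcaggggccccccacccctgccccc
Lmod2 (chr6:24597521-24597770, plus strand): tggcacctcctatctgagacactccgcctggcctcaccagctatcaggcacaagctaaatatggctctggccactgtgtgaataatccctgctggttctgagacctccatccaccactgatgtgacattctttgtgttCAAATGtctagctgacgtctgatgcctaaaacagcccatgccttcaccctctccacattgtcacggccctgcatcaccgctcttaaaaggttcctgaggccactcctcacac

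Of the 13 genes on the myogenic, fusion, sarcomere and contraction lists whose promoter window was overlapped by a gained region, 12 had an E-box in these 250 bases and 8 had the E-box CAGCTG. Counted by its first base from the start, this E-box stood at -223 and -157 in Tnnt2 and at -51 in Mylpf. Acta1 held CAGCTG at -221 and a CArG box at -73, and Actc1 held no E-box and a CArG box at -47. Over all 21262 promoter windows of protein-coding genes, 62.8% held an E-box in the 250 bases before the start. CAGCTG was in 12.1% of them and a CArG box in 1.39%. Over the 82 windows of 67 genes on these 4 muscle lists, with or without a gained region, the shares were 70.7%, 35.4% and 8.54%. Listed genes outside these 67 had no window. A match of letters is a description and shows no binding, and the promoters were picked by their gained regions.

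The 4 libraries differed in ways that touch every count. The lists held 43058 and 49281 peaks at D0, and 60173 and 45545 at D1 CTL. The longest list was D1 CTL replicate 1. The mean number was 46169.5 ± 4400.3 at D0 and 52859 ± 10344 at D1 CTL (SD, n = 2), and the exact two-sided permutation test gave p = 0.667, where 2 libraries against 2 allow no p below 0.333. The background pileup, a measure of depth recovered from the lists, was higher at D0 (4.71 and 5.38) than at D1 CTL (3.17 and 3.22). Covered length was 9.87 ± 1.70 Mb at D0 and 10.5 ± 2.01 Mb at D1 CTL (SD, n = 2). The 2 days overlapped in length covered and in peak number, but not in depth.

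Gained regions outnumbered lost regions 2.83 to 1. The ratio depended on how the lists were made comparable. When each list was reduced to its 20000 strongest peaks, 1739 regions were gained and 1672 lost. With the 40000 strongest they numbered 3369 and 3057. Scaling the lists to the lowest background pileup, after which they still held 38391 to 59765 peaks, moved the counts the other way, to 6974 gained and 859 lost. Without D1 CTL replicate 1 the counts were 6044 and 5276, and without D0 replicate 1 they were 5872 and 5638. Among regions with a −log10 p of at least 10 in both libraries of their group, a limit chosen after seeing the data, 517 were gained and 43 lost.

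**Figure D1:**
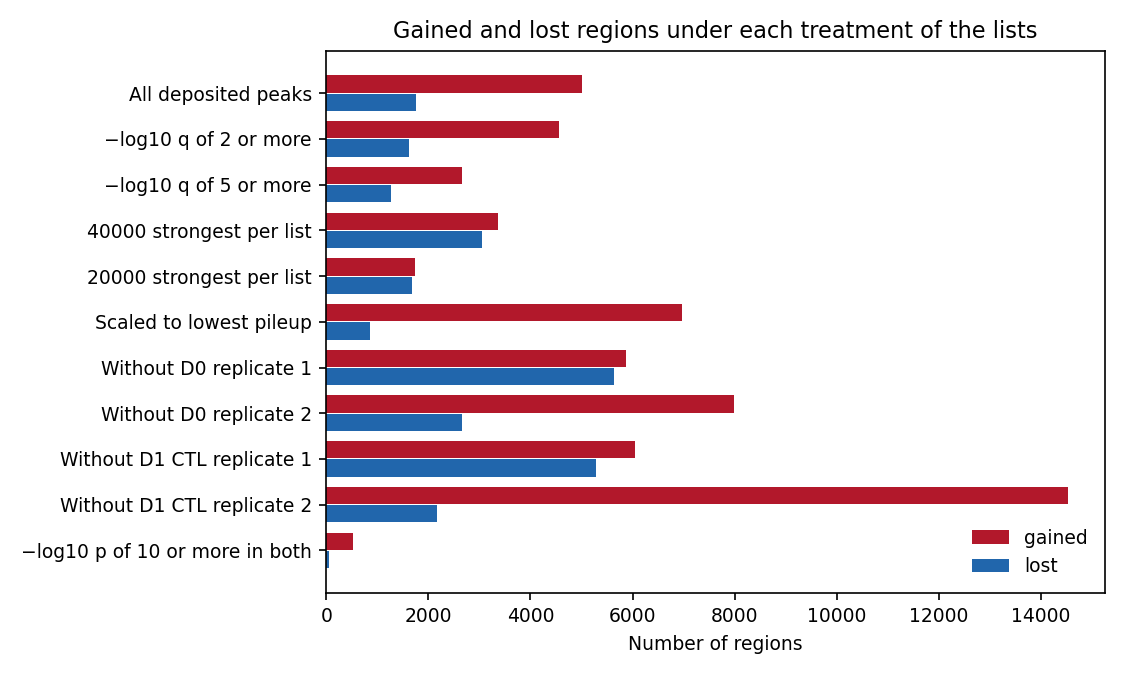
Number of gained (red) and lost (blue) regions (x axis) under each treatment of the 4 peak lists (y axis). Gained exceeded lost in every row, by little when lists were cut to equal length (1739 against 1672) and with the highest ratio among peaks of −log10 p of at least 10 in both libraries (517 against 43).

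Gained and lost regions were narrow and weak beside the regions called throughout. Median width was 111 bp for gained, 115 bp for lost and 252 bp for regions called in all 4. A merged region spans the peaks of every list that called it, so width depends on the number of lists. Regions called in a single D1 CTL or a single D0 library, and not on the other day, had medians of 63 and 77 bp. The median within-list percentile of a gained region was 38.2 in D1 CTL replicate 1 and 24.1 in replicate 2. Lost regions had medians of 16.6 and 24.1 in D0 replicates 1 and 2. The part of the calling rule in these widths and ranks was not tested. Within 1 kb of either end of a protein-coding gene lay 10.8% of gained, 7.08% of lost and 28.4% of the regions called in all 4. Gene bodies held 53.1% of gained and 48.3% of lost regions. A further gained region stood within 10 kb of 19.5% of gained regions, against 13.4% of all regions. Chromosomes took similar shares, since gained regions made up 6.27% (chromosome 19) to 8.30% (chromosome 17) of the regions of a chromosome.

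Among the myogenic regulators, the promoter of Myog, the gene of myogenin, was called at D1 CTL and not at D0. The region chr1:134289601-134290014, centred 197 bp before the start (-197), had a −log10 p of 11.1 in D1 CTL replicate 1 and 7.92 in replicate 2, with no peak in either D0 list. A second region inside the gene, chr1:134290261-134290585, had 5.37 and 4.52. The promoter region was also called in all 6 other WT libraries (D1 MR, D5 CTL and D5 MR) and in no KO library. Of the KO libraries, 2 (line 1 at D5) held only 644 and 1881 peaks. Myod1, which specifies the myoblast, carried gene-end peaks in each of the 4 libraries and no gained or lost region. Tead4, a TEAD factor that acts in muscle differentiation, had 4 gained regions inside the gene. The 2 strongest Tead4 regions, chr6:128236625-128236869 and chr6:128259277-128259671, had a −log10 p of 27.1 and 22.1 in replicate 1, and 17.4 and 15.7 in replicate 2. Tead1 had 3 gained regions, Mef2d and Six4 had 1 each, and Eya4, a coactivator of homeobox factors, had 1 gained and 2 lost. Of the 16 factors on the list, 6 had a gained region within 10 kb and 1 had a lost region. The shares over all 21883 protein-coding genes were 15.8% and 5.93%. The median factor with its flanks spans 71.9 kb, against 37.2 kb over all genes. Of the regions near these factors 9.02% were gained, against 7.03% over all genes.

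Among the lists examined, sarcomere genes had the highest share of genes with a gained region. Of 42 sarcomere genes, 27 (64.3%) had a gained region within 10 kb and 3 (7.14%) had a lost region. Their 47 gained regions came to 1.97 per 100 kb of gene and flank, against 0.324 over all protein-coding genes, and the median gene had 1 where the median of all genes was 0. With the 20000 strongest peaks of each list the shares were 26.2% with a gained and 11.9% with a lost region, against 6.87% and 6.10% of all genes. In the lists as deposited, 19.8% of all regions near sarcomere genes were gained, against 7.03% over all protein-coding genes.

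**Figure D2:**
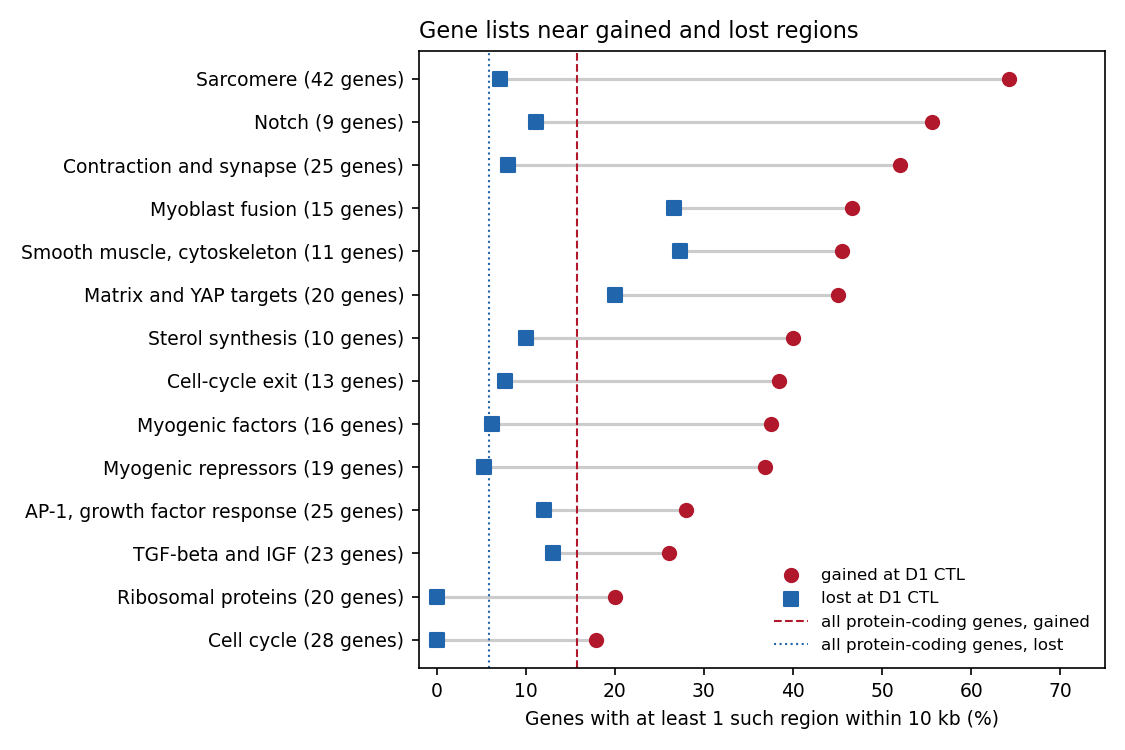
Share of genes of each list with at least 1 gained (red circles) or lost (blue squares) region within 10 kb (x axis, %), with the shares of all protein-coding genes as dashed (gained, 15.8%) and dotted (lost, 5.93%) lines. Sarcomere genes stand at 64.3% gained and 7.14% lost, and cell cycle genes at 17.9% and 0%.

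Acta1, the skeletal muscle actin, had 5 gained regions. The strongest, chr8:123895343-123895527, was centred at -660 bp from the start and had a −log10 p of 24.3 and 12.5 in the 2 D1 CTL libraries. The region over the promoter itself, at -80 bp, had 8.01 and 8.45. Actc1, the cardiac actin that embryonic muscle also uses, had a single gained region over its start, with 8.60 and 10.4. That these regions had no peak at D0 follows from the rule. Beyond them, both genes had no peak within 1 kb of either gene end in the D0 lists.

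The troponins, which couple calcium to the thin filament, had gained regions at genes of slow and fast isoforms. Tnnc1 (slow troponin C) had 4 gained regions, the strongest 4323 bp downstream of the start with a −log10 p of 22.6 and 18.2. Tnnt2 had a region over its promoter (17.3 and 12.2) and another at -1926 bp (18.9 and 8.07). Tnni1 had a region at -99 bp with 18.2 and 8.70, and a lost region in front of it, at -6662 bp, with 5.83 and 5.86 at D0. Tnnc2 had 2 gained regions, Tnnt3 had 3 and Tnni2 had 1. Tnnt1, the slow skeletal troponin T, had none. The gained troponin regions given with values were higher in replicate 1.

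Of the myosin genes, Myh3 (embryonic heavy chain) had 3 gained regions, the strongest with 18.8 and 15.8. Myl4, the embryonic light chain, had 2, of which the stronger had 23.0 and 9.13. Mylpf, the fast regulatory light chain, had 2, with 6.42 and 4.11 over the start. Myh1, Myh2, Myh4, Myh7 and Myh8, heavy chains of adult and neonatal fibres, had none. Lmod2, a leiomodin that elongates thin filaments, had the highest replicate 2 value among the start regions shown, with 19.3 and 18.3 at -78 bp. Unc45b, a myosin chaperone, had 11.5 and 7.91 at -11 bp. Mybph had 3 gained regions, including 17.2 and 16.4 inside the gene.

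**Figure D3:**
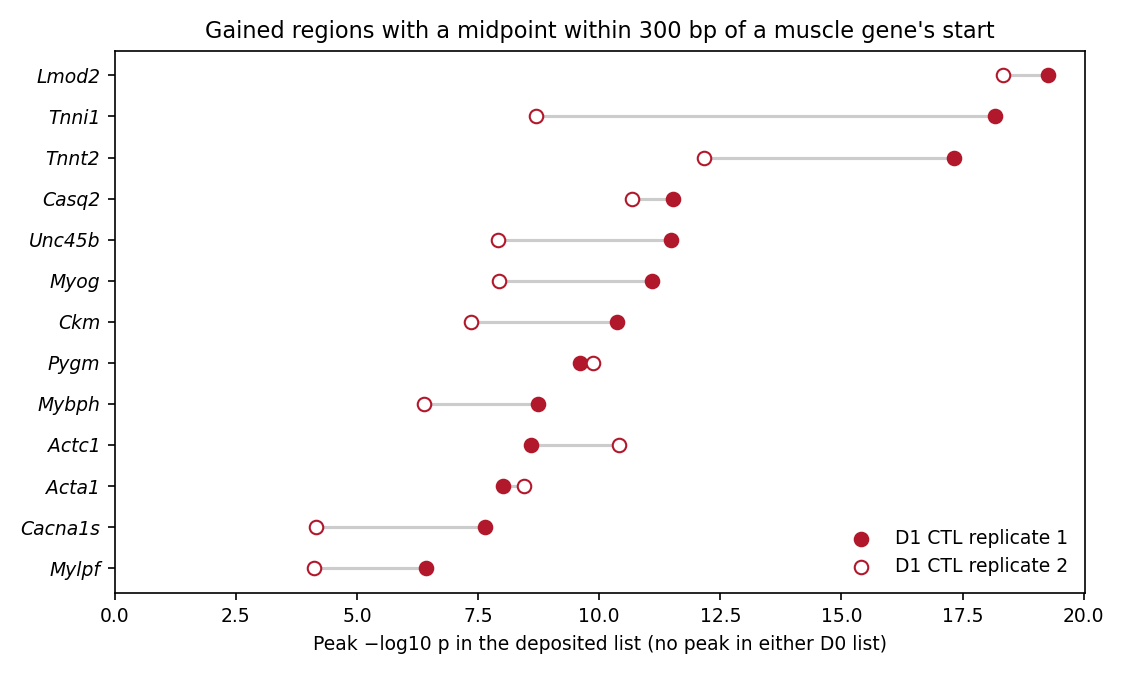
Peak −log10 p (x axis) in D1 CTL replicate 1 (filled) and replicate 2 (open) for gained regions of 13 muscle genes (y axis), each with a midpoint within 300 bp of the start and no peak at D0. Values run from 4.11 (Mylpf, replicate 2) to 19.3 (Lmod2, replicate 1), and replicate 2 is the higher for Pygm, Actc1 and Acta1.

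Gained regions were also frequent near genes of excitation, calcium handling, muscle metabolism and the synapse. Of 25 such genes, 13 (52.0%) had a gained region and 2 (8%) a lost region, beside 15.8% and 5.93% of all genes. Of the regions near them 17.7% were gained, against 7.03% over all genes. Mb, the gene of myoglobin, had 4 gained regions with replicate 1 values from 12.5 to 24.3 and replicate 2 values from 6.38 to 15.6. Casq2, which stores calcium in the sarcoplasmic reticulum, had 3, including 11.5 and 10.7 over the start. Cacnb1, a calcium channel subunit, had 4. Cacna1s, the voltage sensor of skeletal muscle, had 1 at -197 bp with 7.64 and 4.16. Ckm, muscle creatine kinase, had 2, at -240 bp (10.4 and 7.36) and -1198 bp (8.07 and 3.96). Chrnd and Chrng, neighbouring acetylcholine receptor subunits, shared 2 regions, the stronger with 21.3 and 11.7. Pygm, muscle glycogen phosphorylase, had 9.61 and 9.87 at -45 bp. Jph2, which joins surface and internal membranes, had 2 gained and 1 lost region, the latter with 9.90 and 11.5 at D0.

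Fusion genes had regions of both kinds. Of 15, 7 had a gained and 4 a lost region, beside 15.8% and 5.93% of all genes. The median fusion gene with its flanks spans 72.3 kb, against 37.2 kb over all genes. Of the regions near fusion genes 9.27% were gained and 2.65% lost, against 7.03% and 2.10% over all genes. Mymk, the gene of the fusogen myomaker, had 4 gained regions, with −log10 p from 6.72 to 15.3 in replicate 1 and from 4.35 to 7.90 in replicate 2. Cdh15, M-cadherin, had 3 gained regions and no lost one, all with values under 6 in both libraries. Dysf, a membrane repair protein, had 2 gained and 1 lost, and Kirrel and Cdh2 had 1 of each. Jam2 had only a lost region, with 7.46 and 6.55 at D0. Mymx, the gene of myomerger, had neither.

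The cell-cycle exit genes included Cdkn1a, the CDK inhibitor p21, whose call at the 3′ end switched on between the days. Its 2 gained regions lay 5473 and 6793 bp after the start, the second over the 3′ end, with 6.33 and 4.78, and with 7.04 and 6.64. A wider Cdkn1a region nearer the start, chr17:29094406-29095611, was called in all 4 libraries. Ccnd3, a cyclin D kept in differentiating muscle, had 2, the stronger with 16.7 and 6.97. Of the 13 genes, 5 had a gained and 1 (Rbl1) a lost region, beside 15.8% and 5.93% of all genes. Among regions near these genes 9.72% were gained, against 7.03% over all genes. Of 28 cell cycle genes, 5 (17.9%) had a gained and 0 a lost region, and 5.26% of the regions near them were gained. A gene-end peak in all 4 libraries was found at 26 of them, and at 9381 of all 21883 protein-coding genes. The highest cell-cycle value was at E2f1, chr2:154565673-154565862, with 35.2 and 22.6. E2f2 had 11.1 and 6.06 at 254 bp after the start.

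Repressors of myogenesis were also represented among the gained regions. Hdac4, a class II deacetylase that binds MEF2, had 5, the strongest with 16.6 and 10.4. Zeb1, Mdfi, Hdac9, Heyl, Twist2 and Zeb2 had 1 or 2 each. In all, 7 of 19 had a gained region and 1 (Zeb2) a lost region, beside 15.8% and 5.93% of all genes. Of all regions near the repressors 9.92% were gained, against 7.03% over all genes. In the Notch pathway, which holds myoblasts undifferentiated, the ligand genes Jag1 and Jag2 and the receptor genes Notch1, Notch2 and Notch3 each had 1 gained region, with replicate 1 values from 6.27 to 9.85. Notch2 also had 2 lost regions. Thus 5 of 9 Notch genes had a gained and 1 a lost region, beside 15.8% and 5.93% of all genes. Of the regions near Notch genes 6.33% were gained, below the 7.03% over all genes. Among the lists, TGF-beta and IGF genes had 6 of 23 with a gained and 3 with a lost region, beside 15.8% and 5.93% of all genes. Of their regions 5.06% were gained, below the 7.03% over all genes. Smad3 and Smad7, transducer and inhibitor of TGF-beta signalling, each had 2 lost and 1 gained. Ltbp1, which binds latent TGF-beta, had 2 lost. Igfbp5, an IGF-binding protein induced in C2C12 differentiation, had 3 gained, 1 of them shared with Igfbp2.

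Growth-factor response genes had 7 of 25 with a gained and 3 of 25 with a lost region, beside 15.8% and 5.93% of all genes. These genes are dense in regions (20.9 per 100 kb against 4.60), and 6.25% of their regions were gained and 2.08% lost, close to 7.03% and 2.10% over all genes. The lost ones were near Myc (7.89 and 5.59 at D0), Fosb (5.75 and 10.4) and Egr2 (4.596 and 5.73). Egr1 had 3 gained regions, with values from 4.83 to 7.84. Matrix and YAP target genes had 9 of 20 with a gained and 4 with a lost region, and 5.21% of their regions were gained. Fn1 (fibronectin) and Axl, a receptor kinase, had 2 lost each, while Col5a1 had a gained region with 20.4 and 12.4. Of 11 smooth muscle and cytoskeletal genes, 5 had gained and 3 had lost regions. Myh9, non-muscle myosin, had 5 gained and 1 lost, and Actn1, non-muscle alpha-actinin, had 1 gained and 2 lost. Sterol synthesis genes had 4 of 10 with a gained and 1 with a lost region, and ribosomal protein genes 4 of 20 and 0. Of the regions near smooth muscle, sterol and ribosomal protein genes 7.83%, 11.9% and 6.67% were gained.

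The labelled cell type was checked against markers of muscle and of other cell types. Gained regions lay near 2 of 7 adipocyte, 4 of 7 bone and cartilage, 0 of 7 neural, 2 of 7 blood, 0 of 6 endothelial and 1 of 7 epithelial or liver markers, beside 15.8% of all genes. Of the regions near the bone and cartilage markers 8.51% were gained, against 7.03% over all genes. Lost regions lay near 2 endothelial markers (Cdh5 and Kdr), 1 bone marker and 1 epithelial marker. Gene-end peaks in all 4 libraries were found at 2 adipocyte (Pparg and Cebpa), 2 bone, 1 neural (Tubb3), 1 blood (Spi1) and no endothelial or epithelial markers. Among muscle lists, 7 of 16 myogenic factors, 14 of 42 sarcomere and 14 of 25 contraction and synapse genes had them in all 4. Those with none in the 4 libraries numbered 6, 15 and 4. Over all 21883 protein-coding genes, 9381 had gene-end peaks in all 4 libraries and 10621 in none.

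A gene-end call switched on, with a peak within 1 kb of either end in both D1 CTL lists and neither D0 list, for 201 protein-coding genes (0.919%), and off for 58 (0.265%). Genes on the lists that switched on were Acta1, Actc1, Lmod2, Myom2, Tnnc1, Tnnc2, Cacna1s, Casq2, Ckm, Myog, Cdkn1a, E2f2, Tagln and Krt8. No listed gene switched off. Genes switched on that were on no list included Apobec2, Hspb3, Rbm24, Mypn and Tmod1, all known from striated muscle, which were picked after their values were seen. Those switched off included the signalling genes Sgk1, Rgs4 and Notum and the keratin gene Krt14, picked likewise.

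The gained region with the highest mean percentile lay at chr1:74754229-74754430, in the annotated span of Wnt6, with a −log10 p of 52.2 and 36.9. It stood 5274 bp from the start of Prkag3, which encodes a muscle-expressed gamma subunit of AMP-activated kinase. The next were at Mgat4d (51.6 and 31.0), Poldip3 (33.8 and 29.8), Pkd1 (32.8 and 30.0), Rnf126 (36.8 and 26.7), near Rgs8 (30.7 and 30.1) and Prep (33.1 and 26.1), and at Pla2g4f (46.3 and 20.1), Galnt16 (38.1 and 21.5) and E2f1. All 10 had higher values in replicate 1. The lost regions with the highest mean percentile lay at Aebp1 (15.4 and 16.1 in D0 replicates 1 and 2), near Hpf1 (14.3 and 16.99) and Adgrb1 (18.7 and 12.2), at Desi2 (12.95 and 16.96), near Gm30679 (15.98 and 12.9) and Hsfy2 (10.8 and 19.2), at Fer1l6 (10.5 and 20.1) and Eya4 (10.3 and 18.9), near Sox2 (13.2 and 13.5), and at Ankrd13b (10.9 and 17.1). Aebp1 encodes a matrix-associated protein.

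By number of gained regions within 10 kb, Zhx2, a zinc finger and homeobox repressor, led with 9. Cdh13 and Gse1 had 8 and Sorcs2 had 7, and 16 genes had 6, of which Ankmy1, Bach2, Ccdc141 and Cdkal1 come first by name. Acta1 had 5 in 23.0 kb of gene and flank, whereas Cdh13 spread its 8 over 1205 kb. Glis3, a Krüppel-like zinc finger factor, and Pde4d, a cyclic AMP phosphodiesterase, had 5 lost regions each and no gained one. With their flanks these genes span 441 and 1322 kb, against a median of 37.2 kb over all genes. Adam12, a metalloprotease of fusing myoblasts, Fbn1 (fibrillin), Foxp1, Camta1, Cx3cl1 and Dlgap2 were among the genes with 3 lost regions each. Adam12 and Fbn1 also had 1 gained region each, and Camta1 and Dlgap2 had 2 each.

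Promoter windows (250 bases before to 50 after the RefSeq start) of 132 protein-coding genes were overlapped by a gained region (135 windows). Of these windows 36.3% held CAGCTG on either strand (49 of 135, Wilson 95% interval 28.7% to 44.7%), against 15.6% of all 21262 windows and 14.8% of the 8172 windows under regions called in all 4. In the 34 windows under lost regions the share was 14.7% (5 of 34, interval 6.45% to 30.1%). With the 20000 strongest peaks of each list CAGCTG was in 31.5% of gained and 15.2% of lost windows (111 and 171 windows). Any E-box, CANNTG, of which CAGCTG is a part, was found in 80.7% of gained, 76.5% of lost and 69.0% of all windows. The E-box CAGGTG was in 19.3% of gained, 38.2% of lost (13 of 34) and 19.7% of all windows. The AP-1 motif TGANTCA was in 3.70% of gained (5 of 135), 17.6% of lost (6 of 34) and 6.99% of all windows. These orders turned with the 20000 strongest peaks: any E-box was in 61.3% of gained and 52.6% of lost windows, both below the share of all windows, and CAGGTG (21.6% and 13.5%) and TGANTCA (6.31% and 4.68%) had the lower share in lost windows. TEAD (GGAATG), RUNX (TGTGGT) and the CTCF core CCCTC were in 15.6%, 17.04% and 76.3% of gained windows, and in 13.6%, 14.97% and 69.6% of all. MEF2 sites were searched only as CTA, 4 of A or T, and TAG, so looser forms were not counted. This string was in 1 gained window (0.741%) and in 0.489% of all windows. CArG boxes were in 4 gained windows (2.96%) and in 1.52% of all. Mean GC content was 58.8% in gained, 62.2% in lost and 56.2% in all windows, and its part in these shares was not tested. In the gained windows of genes outside the muscle lists, the 250 bases before the start held CAGCTG in 24.0% (29 of 121), against 12.1% of all windows.

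Gained regions also lay within 5 kb of 71 of 1005 miRNA hairpins (7.06%), and lost regions near 11 (1.09%). The miRNAs described here were picked after their values were seen, as known from muscle. A gained region at chr1:20685736-20686163 lay 3180 bp from the 5′ end of the Mir133b hairpin, in the locus that also holds Mir206, both miRNAs of skeletal muscle. It had a −log10 p of 17.02 and 8.45. Another 2 gained regions lay beside Mir322 and Mir503, miRNAs tied to cell-cycle exit in myoblasts. The first had 4.98 and 4.03 in D1 CTL replicates 1 and 2 and was called in no other library. The second had 4.07 and 4.84. The lowest values in these 2 lists were 3.50 and 3.58. Both regions were also within 5 kb of Mir450b, Mir450-1, Mir450-2 and Mir542. Mir125b-1 had 2 lost regions within 5 kb, with 5.73 and 6.06, and with 6.85 and 10.7, in D0 replicates 1 and 2. Mature RefSeq sequences of these miRNAs follow with the seed (bases 2 to 8) in capitals, and no 2 of the 5 share a full seed.
miR-206-3p: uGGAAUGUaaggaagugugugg
miR-133b-3p: uUUGGUCCccuucaaccagcua
miR-322-5p: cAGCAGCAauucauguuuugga
miR-503-5p: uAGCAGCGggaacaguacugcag
miR-125b-5p: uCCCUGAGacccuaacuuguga

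The 16 libraries that did not define the classes were then read at the same regions. Both WT D1 MR libraries had a peak in 58.8% of gained regions, in 49.5% of lost regions and in 97.6% of those called in all 4. Regions called in a single D1 CTL library, for comparison, were called in both D1 MR libraries in 28.5%. At D5 CTL both libraries had a peak in 11.5% of gained, 1.53% of lost and 48.6% of the regions called in all 4. At D5 MR the shares were 31.0%, 16.5% and 78.5%. All 6 other WT libraries called 417 gained (8.34%) and 15 lost regions (0.849%). Of the 47 gained regions near sarcomere genes, all 6 called 18 (38.3%). Both D5 CTL libraries had a peak at 24 of these 47 (51.1%), and both D1 MR libraries at 28 (59.6%), beside 11.5% and 58.8% of all gained regions. The D5 CTL lists were short (22465 and 20847 peaks) although their background pileup was high (5.29 and 5.88).

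In KO cells, the WT gained regions were called in part. KO D1 CTL line 1 had a peak in 41.0% of gained regions and line 2 in 21.1%, while KO D0 line 1 had a peak in 23.6% and line 2 in 3.22%. For the regions called in all 4 WT libraries the KO D1 CTL shares were 91.1% and 86.9%. Both KO lines went from no peak at D0 to a peak at D1 CTL in 190 gained regions (3.80%), and 2522 (50.4%) had no peak in any of these 4 KO libraries. Lost regions were called in KO D0 in 80.9% (line 1) and 37.7% (line 2), and in KO D1 CTL in 65.3% and 42.2%. Line 2 had fewer lost-region calls at D0 than at D1 CTL, and its D0 list held 30629 peaks against 46664 at D1 CTL. Of the 47 gained sarcomere regions, 17 (36.2%) were called in at least 1 KO D1 CTL library and 2 (4.26%) in both. Over all gained regions the shares were 47.0% and 15.1%. The difference between WT and KO was not tested here, and line, depth and genotype cannot be told apart.

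**Figure D4:**
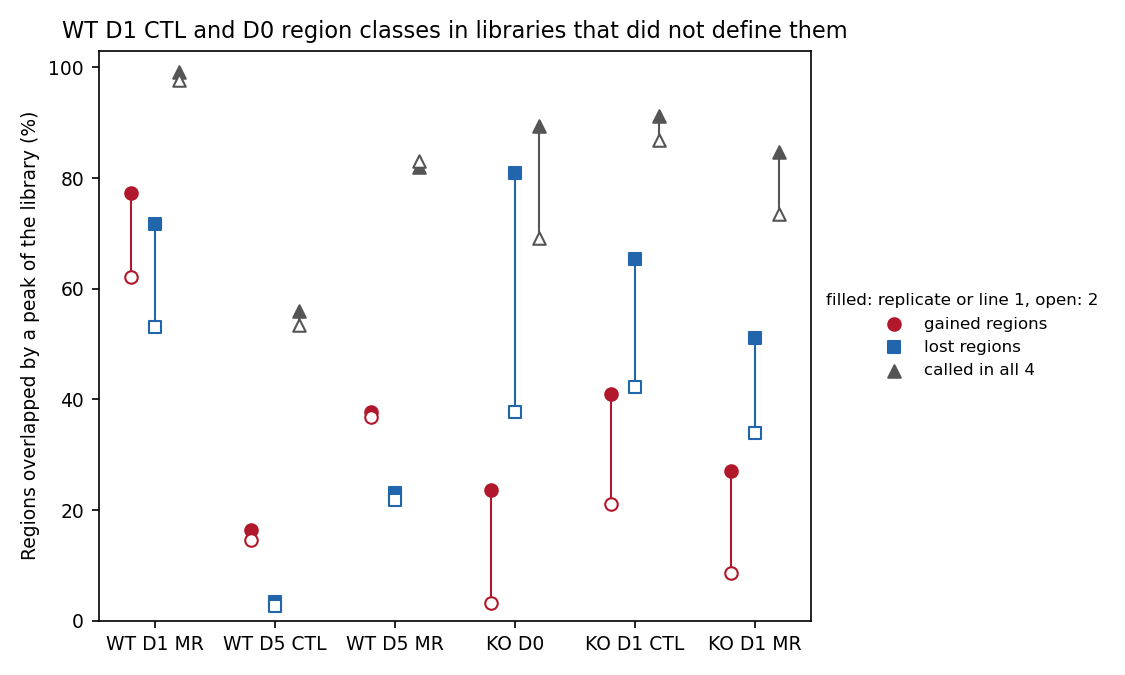
Share of gained (red circles), lost (blue squares) and all-4 regions (grey triangles) overlapped by a peak (y axis, %) in each library of 6 groups that did not define them (x axis), with replicate or line 1 filled and 2 open. Gained regions reach 77.3% and 62.1% in the WT D1 MR libraries and 16.4% and 14.6% at D5 CTL, and lost regions 3.45% and 2.72% at D5 CTL.

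Ranks within the list were compared for the 33672 regions called in all 4 libraries. Each region's −log10 p was ranked among these regions in each library, the ranks were turned into normal scores, and limma was fitted over all of them. After Benjamini-Hochberg adjustment at 0.05, 105 regions ranked higher at D1 CTL (0.312%) and 28 ranked lower (0.0832%). At an unadjusted p under 0.05 there were 3331 (9.89%) and 3157 (9.38%). The groups did not overlap, with both D1 CTL ranks above or below both D0 ranks, at 8198 (24.3%) and 8906 (26.4%). The calls were fragile. None passed when ranks were taken within the whole list (4895 at an unadjusted p under 0.05) or when any 1 library was left out (4519 to 5860), while a variance trend, added after seeing the data, gave 1244 higher and 815 lower. Scores correlated across regions at 0.879 between the D0 replicates, 0.876 between the D1 CTL replicates and 0.740 to 0.797 between days.

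The largest rise was at chr11:96906558-96906842, 583 bp from Cdk5rap3, a gene tied to protein UFMylation. Its percentile rank was 0.304 and 1.55 at D0 and 97.1 and 98.3 at D1 CTL, a score difference of 4.46 ± 0.288 (SE, limma adjusted p = 0.0424). Regions at Ank3 (ankyrin G), near Slc7a5 (a transporter of large neutral amino acids) and near Otog rose by 3.44, 3.28 and 2.99. A second Ank3 region, chr10:69777172-69777480, fell by 2.03 (limma adjusted p = 0.0485). The region near Myh3, chr11:67104836-67105008, rose from percentiles of 5.85 and 4.14 to 88.8 and 91.8 (difference 2.96 ± 0.243, limma adjusted p = 0.0424). It lies beside the gained Myh3 region with values of 18.8 and 15.8. Regions at Hip1 and Dysf and near Nrp1 rose by 2.93, 2.90 and 2.85. The Dysf region went from 15.7 and 1.46 to 90.1 and 90.6. The 8 largest of the 28 falls were near Mgat3, Prl, Sez6, Rrp12, Piwil2, E2f7 and Laptm4b and at Mad1l1, with differences from -2.51 to -2.24. The region near Sez6 fell from percentiles of 83.5 and 79.3 to 10.0 and 2.69. The region 17012 bp from E2f7, a repressor among the E2F factors, fell from 73.3 and 61.3 to 3.43 and 3.81. The 8 rises and 8 falls had adjusted p-values between 0.0424 and 0.0485 by limma.

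**Figure D5:**
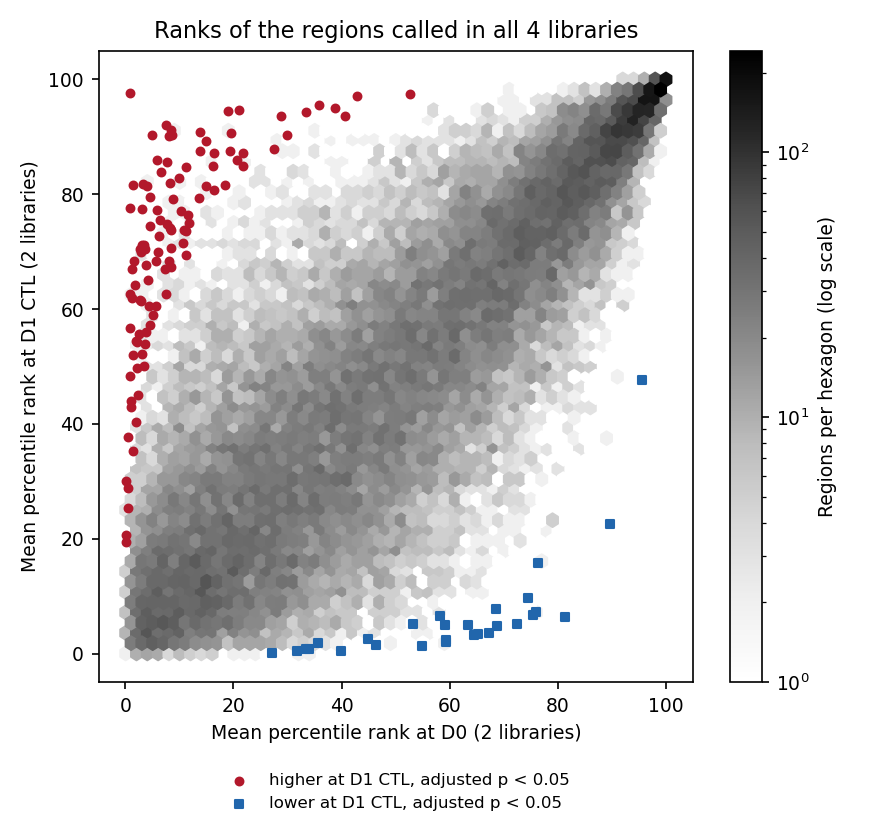
Mean percentile rank at D0 (x axis) and at D1 CTL (y axis), each over 2 libraries, for the 33672 regions called in all 4 libraries (grey, regions per hexagon on a log scale). Red circles (105) and blue squares (28) passed the adjusted threshold and stand off the diagonal.

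Near the listed genes, 2 regions passed, those of Myh3 (1 of 97 near sarcomere genes) and Dysf (1 of 75 near fusion genes). Near the genes of every other list none passed. Over all regions 0.312% passed as higher and 0.0832% as lower. The 97 all-4 regions near sarcomere genes had a median score difference of 0.13, and 30 (30.9%) were above both D0 ranks and 19 (19.6%) below, against a median of -0.023 and shares of 24.3% and 26.4% over all regions. The 85 regions near contraction and synapse genes had a median of 0.13, with 29 above and 14 below. The 45 near Notch genes had a median of 0.15, with 18 above and 8 below. In the other direction stood 104 regions near matrix and YAP target genes (median -0.16, 21 above and 36 below), 68 near cell cycle genes (-0.14, 10 and 23), 44 near ribosomal protein genes (-0.12, 6 and 16) and 78 near growth-factor response genes (-0.07, 11 and 23).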

How the data were processed

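Lysed C2C12 cells were tagmented with a commercial ATAC-seq kit, and after 10 PCR cycles the DNA was sequenced in paired ends, per the labels' protocols. The build is GRCm38, per the submitters' processing notes. The peak caller, the aligner, any transposase offset of the reads and the duplicate filter are not given in the sources used here, so their effect on the lists was not tested. The authors deposited 1 broadPeak list per library, called on each library alone. Each peak has, per the deposited lists, a score, a fold enrichment (a ratio), a −log10 p-value and a −log10 q-value. These are the authors' values and were used only to describe, rank or filter peaks within a list. Read totals were not used here. Depth was recovered as the background pileup by solving, in each list, the most frequent fold and −log10 p combination under assumed Poisson formulas.

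Peaks of the 2 D0 and 2 D1 CTL lists were merged where they shared 1 bp. Protein-coding genes came from RefSeq (GRCm38.p6), with a flank of 10 kb, and a gene-end call needed a peak within 1 kb of either end. RefSeq promoter windows replaced region sequences in the motif search, since no genome was given here. They are without chromosome 18 and covered 17491 genes by symbol, against 21883 protein-coding genes in all. Shares carry Wilson 95% intervals, which cover counting error only. Ranks were compared with limma 3.58.1 in R 4.3.3. On simulated data for that comparison, 0 of 200 changed regions among 33672 passed the adjusted threshold, and with 4000 changed, 920 of 1000 passed at a shift of 4 scores and 334 of 1000 at a shift of 1. Unchanged regions passed in 220 of 29672 cases there. Python 3.11.15 was used for the rest. Alternatives covered the peak threshold, list length, depth, overlap, distance, ranking and each library left out.

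The named genes were the 10 gained and 10 lost regions of highest mean percentile, the 8 largest rises and 8 largest falls past the threshold, the 8 genes with most regions of each kind, listed genes whose gene-end call switched, and up to 5 members per list with most gained or lost regions. Further genes and the miRNAs were picked after their values were seen. The regions, gene lists and rules were chosen with earlier results of these data known.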

Additional observations from a re-analysis of the deposited data

How the results depend on the processing

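Gained exceeded lost regions under every alternative tried, but the counts moved. Gained regions fell to 2665 at a −log10 q of at least 5 and to 1739 with the 20000 strongest peaks. Lost regions numbered 3057 with the 40000 strongest peaks, 859 after scaling to the lowest background pileup and 2685 when peaks had to cover 50% of a region. Regions with a −log10 p of at least 10 in both libraries numbered 517 and 43. Leaving out 1 library gave 5872 to 14529 gained and 2163 to 5638 lost regions. Differences of D1 CTL minus D0 in the lists changed sign with the library left out: log2 peak number from -0.016 to 0.39, covered length from -0.78 to 2.05 Mb and gene-end share from -2.08 to 0.63 percentage points.

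Over all protein-coding genes, the share with a gained and with a lost region was 11.1% and 4.18% at 1 kb, 31.1% and 13.2% at 50 kb, 22.2% and 8.34% among genes with any region, and with the 20000 strongest peaks the gained share was 6.87%. Contraction genes had 80.0% and 28.0% at 50 kb, and 24.0% and 0% with the 20000 strongest. Sarcomere genes had 26.2% with a gained region under that limit. Cell cycle genes had 35.7% gained at 50 kb and 7.14% with the 20000 strongest. CAGCTG in the central 100 bp of the window was in 10.4% of gained, 5.88% of lost and 5.14% of all windows, a shorter stretch by construction.

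Rank calls (higher, lower) were 220 and 92 with fold ranked, 117 and 54 in regions of at least 300 bp (34 of 171 shared with the 133), 1244 and 815 with a variance trend, and 0 and 0 with whole-list ranks, with percentile ranks, at a −log10 q of at least 2 and with any library left out (0 to 0 each way). Unadjusted p under 0.05 was reached there by 4895, 6598, 6048 and 4519 to 5860 regions in limma. The cause was not tested. A replicate block gave 112 and 25, with 110 of 133 calls shared, and the replicate numbers name no known pairing (correlation of same-number deviations 0.124). All 154 alternative values of the 16 named rank regions kept their direction, and 52 passed. These regions were picked as the largest changes in the same 4 libraries, so the kept direction is no independent support. Of the 20 named gained and lost regions, 16 kept their call with the 20000 strongest peaks. The recovered pileup was lower at D1 CTL, and the part of depth in the counts was not tested beyond the scaling above.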
